A study of Homo sapiens with 16 samples.

Results

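The results concern 10 human genes of redox metabolism: the aldo-keto reductases AKR1C1, AKR1C2 and AKR1C3, the quinone reductase NQO1, the glutathione synthesis genes GCLM and GCLC, the thioredoxin system genes TXN, TXNRD1 and SRXN1, and OSGIN1. They were chosen by name, by matching the Entrez identifier of each row of the deposited gene tables to these symbols. All 10 were found among 16697 identifiers, and all 10 passed the filter on low counts that left 13633 genes for testing. Messenger RNA was measured by RNA sequencing in 16 libraries from the hepatoma cell lines HepG2 and Huh-7. Cells were treated for 12 h or 24 h with 5 µmol/L cinobufagin or left untreated. Cinobufagin is a bufadienolide, a steroid from toad skin secretion that blocks the sodium pump of the cell membrane. HepG2 had 3 libraries at 12 h, 3 at 24 h and 1 untreated library, and Huh-7 had 3 libraries at each time. The labels give no genetic change for either line and no vehicle for the untreated cultures, which are the 0 h point, so the drug and the time in culture cannot be told apart.

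NRF2, encoded by NFE2L2, is the transcription factor through which cells answer electrophiles and oxidants. In unstressed cells KEAP1 holds it for ubiquitination by a CUL3 and RBX1 ligase. Once released, it pairs with a small MAF protein and binds antioxidant response elements, which BACH1 can occupy as a repressor. Its known targets make glutathione and NADPH, reduce thioredoxin, quinones and carbonyls, and export conjugates, and in liver they serve the clearance of drugs and other foreign compounds.

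The promoters of the members are shown first, because AKR1C1 and AKR1C2 are hard to tell apart by sequence and because only some members carry an antioxidant response element core next to their start. RefSeq windows of 250 bases before the transcription start were available for all 10 members, on GRCh38.p14, which is a later build than the hg19 named for the deposited values. The windows of AKR1C1 (chr10:4963165-4963414, plus strand) and AKR1C2 (chr10:5003858-5004107, minus strand) are both on chromosome 10. Over 246 aligned bases they were identical at 245, or 99.6%. Each was 76.8% to 79.1% identical to the 2 windows listed for AKR1C3.
AKR1C1: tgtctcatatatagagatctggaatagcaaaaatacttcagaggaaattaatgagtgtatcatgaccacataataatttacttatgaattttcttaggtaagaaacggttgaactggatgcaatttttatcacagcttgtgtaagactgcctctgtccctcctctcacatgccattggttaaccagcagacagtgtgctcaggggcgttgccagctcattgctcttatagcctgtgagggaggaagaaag
AKR1C2: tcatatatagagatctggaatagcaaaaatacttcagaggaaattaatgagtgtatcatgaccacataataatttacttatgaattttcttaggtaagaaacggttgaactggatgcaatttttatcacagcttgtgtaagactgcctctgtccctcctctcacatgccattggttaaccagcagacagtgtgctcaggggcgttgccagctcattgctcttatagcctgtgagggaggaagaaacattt

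An antioxidant response element core was searched as TGACNNNGC on both strands, and an AP-1 site as TGAGTCA, which can overlap the core. The core was in 10.9% and the AP-1 site in 4.2% of 35116 RefSeq windows of the same length. Of the members, GCLM (chr1:93909431-93909680, minus strand) and TXNRD1 held a core and OSGIN1 (chr16:83952990-83953239, plus strand) held an AP-1 site, marked in capitals. The GCLM core begins 34 bases before the start. TXNRD1 has 2 windows, and the downstream one (chr12:104286782-104287031, plus strand) has its core beginning 102 bases before the start. The OSGIN1 match begins 97 bases before the start. Neither motif was in these windows of AKR1C1, AKR1C2, AKR1C3, NQO1, GCLC, TXN or SRXN1, which says nothing of elements farther away. A match is a run of letters and not a measured binding site.
GCLM: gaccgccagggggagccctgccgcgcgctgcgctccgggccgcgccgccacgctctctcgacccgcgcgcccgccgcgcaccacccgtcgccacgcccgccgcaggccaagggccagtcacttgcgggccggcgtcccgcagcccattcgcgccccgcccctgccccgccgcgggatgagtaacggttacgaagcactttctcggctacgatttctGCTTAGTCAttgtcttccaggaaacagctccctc
TXNRD1: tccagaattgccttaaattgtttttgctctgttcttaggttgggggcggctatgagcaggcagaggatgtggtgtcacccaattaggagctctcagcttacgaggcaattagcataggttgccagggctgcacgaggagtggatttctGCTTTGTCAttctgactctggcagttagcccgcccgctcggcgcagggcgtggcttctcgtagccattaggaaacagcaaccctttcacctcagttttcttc
OSGIN1: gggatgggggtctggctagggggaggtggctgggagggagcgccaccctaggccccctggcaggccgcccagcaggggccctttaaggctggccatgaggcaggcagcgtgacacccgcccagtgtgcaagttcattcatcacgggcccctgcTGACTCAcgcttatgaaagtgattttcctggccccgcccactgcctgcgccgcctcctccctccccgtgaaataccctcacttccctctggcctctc

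The libraries held 9543048 to 10457853 expected counts, and 3 counts, the limit that a count of 0 allows, equal 0.287 to 0.314 CPM, that is counts scaled to a common library total, before TMM. Such limits leave out all error but that of counting. Whether replicate libraries are separate cultures is not labelled. Their spread, and with it each p-value, may be purely technical. Levels below are CPM after TMM scaling, with factors of 0.889 to 0.982 in treated and 1.17 to 1.24 in untreated libraries. The cell markers of this paragraph are the exception and are given as CPM on plain library totals. With plain library totals in place of TMM, the median log2 change of all genes was lower by 0.40 at 12 h and 0.27 at 24 h in HepG2, and by 0.42 and 0.35 in Huh-7, so changes are to be read relative to these shifts. A gene was called at a Benjamini-Hochberg adjusted p under 0.05 from edgeR's quasi-likelihood test together with a change of at least 2-fold. Most markers of liver origin were near 0. Of 15 secreted hepatocyte proteins 2 reached 10 CPM in untreated HepG2, VTN (188 CPM) and RBP4 (10.5 CPM). In untreated Huh-7 only 1 did, RBP4 (21.8 CPM), and 6 were listed in no library. AFP, APOA1 and TTR averaged at most 0.0342 CPM in any group. HepG2 and Huh-7 are known for making these proteins, so their levels go against the labels, and both names below are used as labelled. Of 16 markers of other cells, 9 reached 10 CPM in HepG2 at either time and 10 untreated, and 6 in Huh-7 at either time and 8 untreated. Their summed level on plain library totals was 6650 CPM at 12 h and 5840 CPM at 24 h in HepG2, against 7550 CPM untreated. In Huh-7 it was 1320 and 1120 CPM, against 1960 CPM untreated. Most of the HepG2 sum was ALPP, at 4830 CPM at 12 h and 4630 CPM at 24 h, against 4480 CPM untreated. The sum thus hides opposite movements. KRT7 had 555 and 408 CPM in treated HepG2, against 994 CPM untreated, and VIM 556 and 459 CPM, against 1010 CPM. TMM scaling would raise treated levels relative to untreated ones. With the TMM factors of these libraries the HepG2 sum at 12 h lies above the untreated one, so its fall does not hold on that scale. The 6 hepatocyte transcription factors summed to 2.22 CPM at 12 h and 3.82 CPM at 24 h in HepG2, against 8.42 CPM untreated. In Huh-7 they summed to 8.44 and 10.2 CPM, against 92.5 CPM untreated, of which CEBPA made 52.9 and HNF4A 37.8 CPM. The part of these shifts in the results below was not tested. In bulk RNA, fewer cells of a type and less RNA per cell cannot be told apart.

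The members did not respond as one block. The 3 AKR1C genes fell in both lines at both times, by 2.13-fold or more. TXN and TXNRD1 were 1.87-fold to 2.21-fold higher in HepG2 and 1.63-fold to 1.86-fold higher in Huh-7, OSGIN1 rose in both lines by 24 h, and SRXN1 rose in HepG2 at 24 h and fell in Huh-7 at 12 h. NQO1, GCLM and GCLC were called in neither line. In HepG2 at 12 h, 2 members were called higher and 3 lower, where 37.9% of all tested genes were called. In HepG2 at 24 h, 3 were called higher and 3 lower, beside 36.4% of all genes. In Huh-7 at 12 h, none was called higher and 5 lower, beside 44% of all genes. In Huh-7 at 24 h, 1 was called higher and 3 lower, beside 44.8% of all genes. In these 4 comparisons 14.3%, 14.1%, 16.8% and 17.9% of all genes were called higher, and 23.6%, 22.3%, 27.1% and 26.9% lower. In either direction, 5, 6, 5 and 4 of the 10 members were called. Those counts lie near the background of all genes in all but HepG2 at 24 h, and they were not tested against it. The 12 h and 24 h comparisons of a line share its untreated libraries. In each of the 4 comparisons 9 members had treated and untreated libraries that did not overlap, where 88.8% and 88.6% of all tested genes did so in HepG2 and 84.6% and 84.5% in Huh-7. The median log2 change of the members was -0.22 at 12 h and 0.09 at 24 h in HepG2 and -0.82 and -0.59 in Huh-7, beside -0.09, -0.01, -0.10 and -0.04 for all genes tested. With no fold threshold, 9 members passed at an adjusted p under 0.05 in each of the 4 comparisons, beside 73.7% and 73.3% of all genes in HepG2 at 12 and 24 h and 83.7% and 83.9% in Huh-7.

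**Figure D1:**
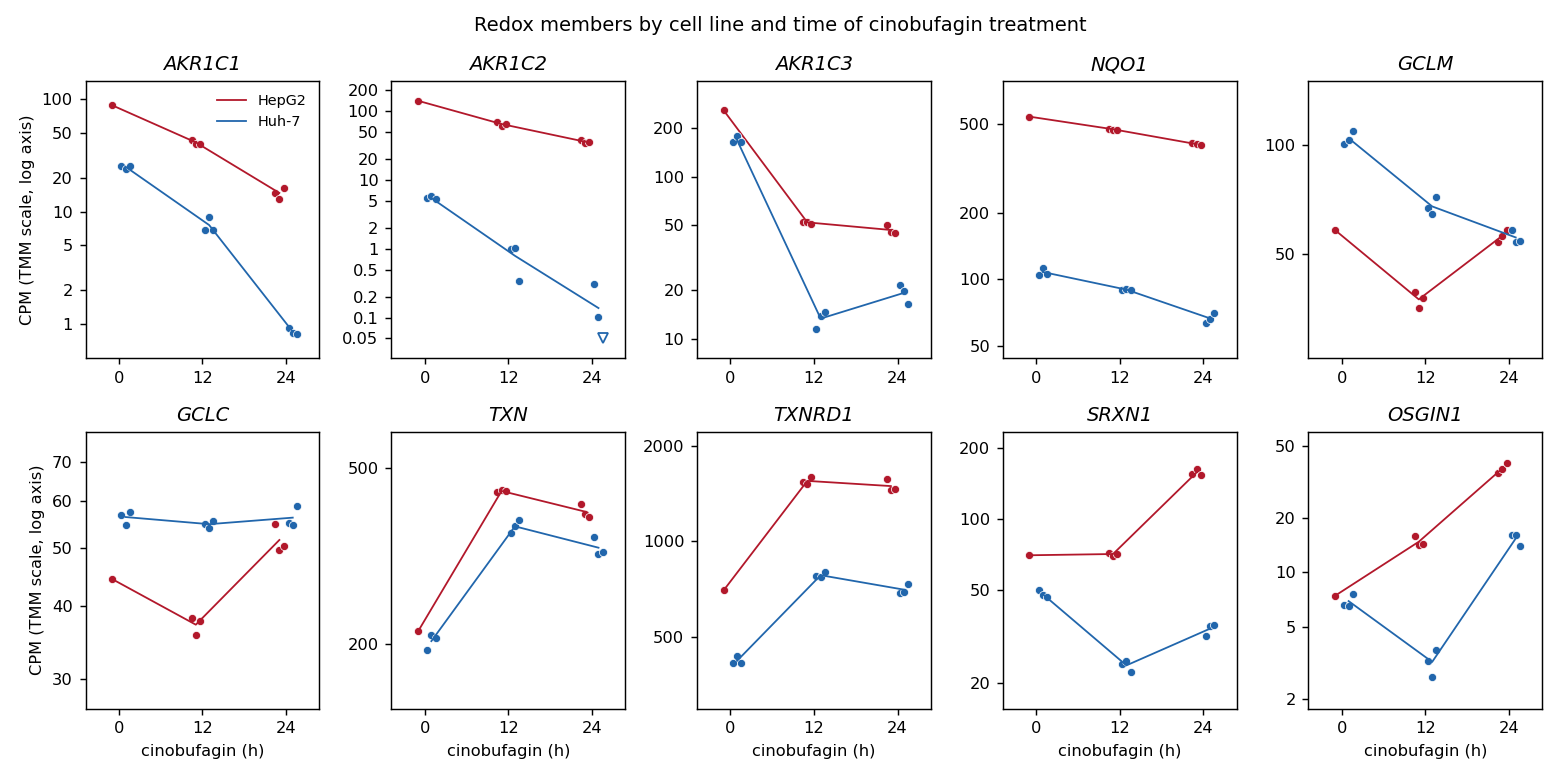
Level of each member in every library (points, CPM on the TMM scale, log axis) at 0, 12 and 24 h of cinobufagin in HepG2 and Huh-7; lines join the group means and the open triangle marks a Huh-7 library with AKR1C2 at 0. The AKR1C genes descend in both lines, TXN and TXNRD1 climb by 12 h, and SRXN1 and OSGIN1 separate the lines.

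**Figure D2:**
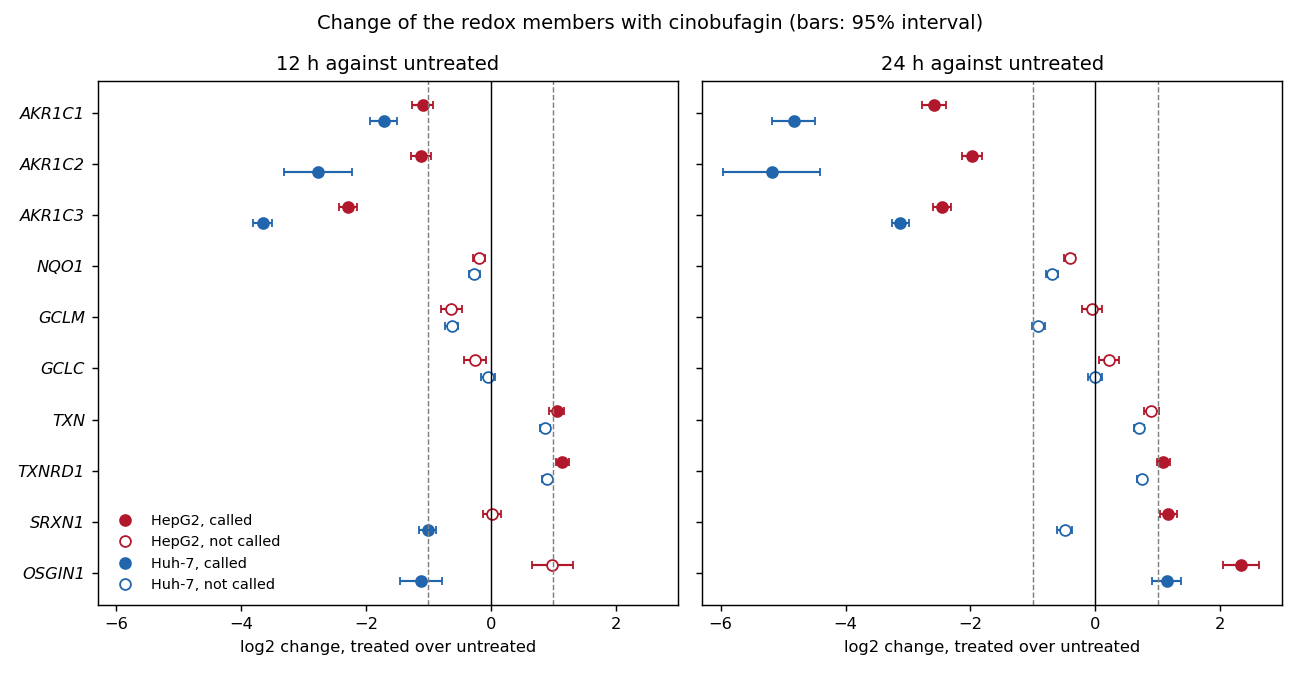
Log2 change of each member, treated over untreated, at 12 h (left) and 24 h (right) in HepG2 and Huh-7, with 95% intervals from the edgeR fit; filled points were called and dashed lines mark a 2-fold change. The AKR1C genes lie left of the lower dashed line in all 4 comparisons, and NQO1, GCLM and GCLC lie between the dashed lines.

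AKR1C1, AKR1C2 and AKR1C3 are cytosolic enzymes that use NADPH to reduce ketones of steroids and prostaglandins and carbonyls of drugs. AKR1C1 fell at each step in both lines. In HepG2 it had 87.3 CPM in the untreated library, 43.3, 39.8 and 39.85 CPM at 12 h, and 14.7, 12.97 and 16.1 CPM at 24 h. In Huh-7 it had 25.4, 24.0 and 25.4 CPM untreated, 6.82, 9.03 and 6.90 CPM at 12 h, and 0.930, 0.830 and 0.824 CPM at 24 h. No library of a treated group overlapped an earlier time in either line. The change was 2.13-fold lower at 12 h and 5.97-fold lower at 24 h in HepG2 (log2 -1.09 ± 0.08 and -2.58 ± 0.09, ± SE; adjusted p = 1.37e-13 and 5.31e-22, edgeR quasi-likelihood). In Huh-7 it was 3.29-fold and 28.5-fold lower (log2 -1.72 ± 0.11 and -4.83 ± 0.17; adjusted p = 2.39e-16 and 2.4e-23, same test). Between 12 and 24 h alone AKR1C1 fell 2.80-fold in HepG2 and 8.68-fold in Huh-7. The Huh-7 libraries at 24 h hold only 8.54, 7.66 and 7.71 expected counts of AKR1C1, so the Huh-7 folds at that time rest on few reads.

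AKR1C2 was the member with the widest gap between the lines. In HepG2 it had 141 CPM untreated, 69.2, 60.9 and 64.2 CPM at 12 h, and 37.6, 34.1 and 35.95 CPM at 24 h. In Huh-7 it had 5.39, 5.78 and 5.22 CPM untreated, 1.01, 1.03 and 0.339 CPM at 12 h, and 0.310, 0.104 and 0 CPM at 24 h. The Huh-7 libraries at 24 h hold 3.45, 1 and 0 expected counts, so their level is at the limit of detection. Summed over libraries, 4 counts at 24 h against 195 untreated give a ratio 39.4-fold lower with an exact 95% interval of 15.2 to 146 that covers counting error only. At 12 h, 21 against 195 counts give 6.87-fold lower (4.37 to 11.3). In HepG2 the gene was 2.18-fold lower at 12 h and 3.93-fold lower at 24 h (log2 -1.12 ± 0.08 and -1.98 ± 0.08; adjusted p = 1.16e-14 and 1.5e-20, edgeR quasi-likelihood). The fitted log2 change of Huh-7 at 24 h, -5.19, is set by single reads: it was -6.41 without Huh-7 24 h replicate 1 and -4.64 without replicate 3.

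AKR1C3 made nearly all of its descent by 12 h. In HepG2 it had 255.6 CPM untreated, 52.4, 52.8 and 51.3 CPM at 12 h, and 50.3, 45.2 and 45.0 CPM at 24 h. Huh-7 libraries had 162.6, 177.5 and 162.3 CPM untreated, 11.5, 13.8 and 14.6 CPM at 12 h, and 21.5, 19.6 and 16.5 CPM at 24 h. The 12 h and 24 h libraries of HepG2 did not overlap but differed by 1.11-fold (95% interval of the log2 change -0.297 to -0.015), whereas those of Huh-7 were 1.44-fold higher at 24 h (adjusted p = 8.48e-05, edgeR quasi-likelihood), short of a call. Against untreated cells the fall was 4.90-fold at 12 h and 5.46-fold at 24 h in HepG2 (log2 -2.29 ± 0.07 and -2.45 ± 0.07; adjusted p = 6.26e-24 and 1.22e-24). In Huh-7 it was 12.6-fold and 8.72-fold (log2 -3.65 ± 0.07 and -3.12 ± 0.07; adjusted p = 1.46e-29 and 8.81e-29).

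Reads from these 3 genes are partly shared. Of the 50-base windows in the GENCODE transcripts of AKR1C2, 43.8% also occur in AKR1C1, and 7.45% and 9.32% of those of AKR1C3 occur in AKR1C1 and AKR1C2. The GENCODE transcript of AKR1C1 has 6656 such windows, but the deposited length of the gene is 1384 bases. The transcripts used for counting thus differ from these, and the shares among them were not measured. How the estimated counts were split between AKR1C1 and AKR1C2 is therefore uncertain, while the sum over the 3 genes does not depend on that split. The sum was 164.8, 153.4 and 155.4 CPM at 12 h in HepG2 and 102.5, 92.3 and 97.05 CPM at 24 h, against 483.9 CPM untreated. In Huh-7 it was 19.35, 23.9 and 21.7 CPM at 12 h and 22.7, 20.55 and 17.3 CPM at 24 h, against 193.4, 207.3 and 192.9 CPM untreated. The sum fell 3.07-fold and 4.97-fold in HepG2 and 9.14-fold and 9.79-fold in Huh-7 (log2 -1.62, -2.31, -3.19 and -3.29; adjusted p at most 1.01e-21, edgeR quasi-likelihood). It did not pass the test between 12 and 24 h of Huh-7 (log2 -0.10 ± 0.10, adjusted p = 0.401) and was 1.62-fold lower in HepG2 (adjusted p = 3.64e-13), short of 2-fold.

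The mix of the 3 differed between lines and times. AKR1C3 held 33.1% ± 1.31 of the counts at 12 h and 48.1% ± 1.56 at 24 h in HepG2 (SD, n = 3), against 52.8% in the untreated library. In Huh-7 it held 61.5% ± 4.85 at 12 h and 95.2% ± 0.57 at 24 h, against 84.6% ± 0.89 untreated. AKR1C2 held 41% ± 1.17 at 12 h and 36.9% ± 0.23 at 24 h in HepG2, against 29.1% untreated, but no more than 5.27% in any Huh-7 library. AKR1C1 reached its highest share at 12 h in both lines, 25.9% ± 0.30 in HepG2 and 34.8% ± 3.06 in Huh-7, and fell to 4.11% ± 0.41 in Huh-7 at 24 h. AKR1C4, the liver form of the family, averaged at most 1.15 CPM in any group.

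**Figure D3:**
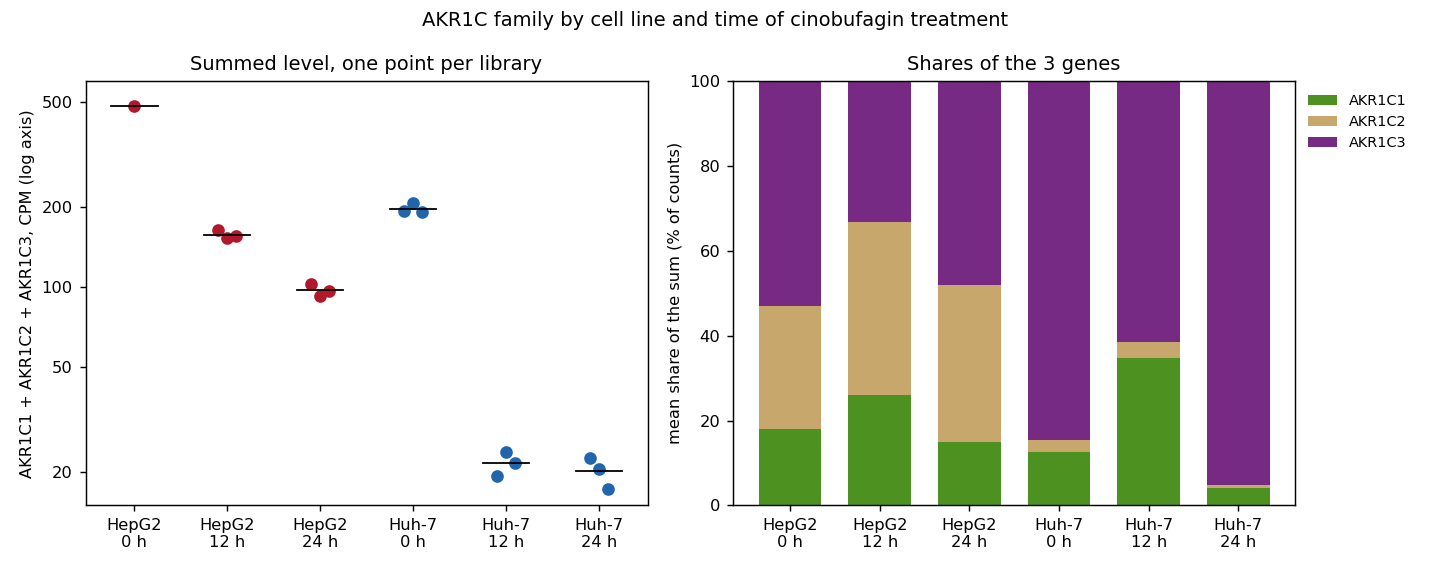
Left, summed CPM of AKR1C1, AKR1C2 and AKR1C3 in every library (points, log axis; bars are group means) at 0, 12 and 24 h in HepG2 and Huh-7. Right, mean share of each gene in the summed counts of a group: AKR1C3 holds 95.2% in Huh-7 at 24 h and 33.1% in HepG2 at 12 h.

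NQO1, which reduces quinones by a pair of electrons and is a widely used marker of NRF2 activity, changed by less than 2-fold. In HepG2 it had 540.5 CPM untreated, 477.2, 472.6 and 472.8 CPM at 12 h, and 410.6, 405.7 and 402.9 CPM at 24 h. The Huh-7 libraries held 105.1, 112.9 and 106 CPM untreated, 90.0, 90.5 and 89.4 CPM at 12 h, and 64.0, 66.1 and 70.35 CPM at 24 h. Every step was downward with no overlap between libraries, yet none reached 2-fold: the level was 1.14-fold lower at 12 h and 1.33-fold lower at 24 h in HepG2, and 1.2-fold and 1.62-fold lower in Huh-7 (adjusted p at most 0.00051, edgeR quasi-likelihood). On plain library totals the Huh-7 change at 24 h became a call, at log2 -1.04.

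GCLM and GCLC encode the modifier and catalytic subunits of glutamate-cysteine ligase, which makes the first step of glutathione synthesis. GCLM dipped and came back in HepG2, with 58.2 CPM untreated, 39.2, 35.5 and 37.7 CPM at 12 h, and 53.9, 56.2 and 58.3 CPM at 24 h. In Huh-7 it went on descending, with 100.8, 103.3 and 109.2 CPM untreated, 66.9, 64.3 and 71.8 CPM at 12 h, and 58.4, 53.9 and 54.4 CPM at 24 h. In HepG2 it was 1.55-fold lower at 12 h (log2 -0.63 ± 0.08, adjusted p = 3.92e-08, edgeR quasi-likelihood) and 1.04-fold lower at 24 h (95% interval of the log2 change -0.21 to 0.11). In Huh-7 it was 1.54-fold and 1.88-fold lower (log2 -0.63 ± 0.05 and -0.91 ± 0.05). None of these is a call on the TMM scale. On plain library totals GCLM was called lower at 12 h in both lines and at 24 h in Huh-7 (log2 -1.03, -1.04 and -1.26). With upper-quartile scaling it was called lower in Huh-7 at 24 h (-1.19), and its difference of responses at 24 h, 0.86 and no call under TMM, was then 1.00 and a call.

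Under TMM, GCLC had the smallest change of the 10 members in Huh-7 at both times. It had 38.1, 35.7 and 37.6 CPM at 12 h and 54.8, 49.6 and 50.4 CPM at 24 h in HepG2, against 44.3 CPM untreated. In Huh-7 all 9 libraries lay between 54.05 and 59.0 CPM, and the 95% intervals of the log2 change were -0.15 to 0.07 at 12 h and -0.11 to 0.11 at 24 h. On plain library totals the Huh-7 changes were log2 -0.46 and -0.35, near the shift of all genes given above. In HepG2 the change was 1.19-fold lower at 12 h and 1.16-fold higher at 24 h (adjusted p = 0.00708 and 0.0144, edgeR quasi-likelihood), and the second turned to 1.03-fold lower on plain library totals (log2 -0.05). Per length, GCLM averaged 12.3 FPKM at 12 h and 10.54 FPKM at 24 h in Huh-7, against 25.2 FPKM untreated, and GCLC 13.2 and 14.1 FPKM, against 18.0 FPKM untreated.

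TXN encodes thioredoxin and TXNRD1 the cytosolic reductase that recharges it with NADPH, and the pair moved alike. TXN had 442.1, 446.3 and 444.4 CPM at 12 h and 414.2, 395 and 387.9 CPM at 24 h in HepG2, against 213.9 CPM untreated. In Huh-7 it had 357.8, 370 and 381.2 CPM at 12 h and 349, 319.6 and 323.7 CPM at 24 h, against 193.9, 209.5 and 206.9 CPM untreated. All treated libraries lay above all untreated ones. In HepG2 TXN rose 2.08-fold at 12 h (log2 1.06 ± 0.06, adjusted p = 3.51e-17, edgeR quasi-likelihood) and was 1.87-fold higher at 24 h, and in Huh-7 it was 1.82-fold and 1.63-fold higher, the last 3 short of a call.

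In HepG2 TXNRD1 had reached its level by 12 h, with a log2 difference between 24 and 12 h of -0.05 (95% interval -0.12 to 0.02, and 0.08 on plain library totals). In Huh-7 that difference was -0.152 (95% interval -0.225 to -0.079), a small fall. It had 1541, 1518 and 1594 CPM at 12 h and 1567, 1456 and 1458 CPM at 24 h in HepG2, against 701.3 CPM untreated. Huh-7 had 775.8, 769.7 and 800.7 CPM at 12 h and 686.5, 690.8 and 734.4 CPM at 24 h, against 413.1, 435.2 and 412.4 CPM untreated. It rose 2.21-fold and 2.13-fold in HepG2 (log2 1.15 ± 0.05 and 1.09 ± 0.05; adjusted p = 2.61e-19 and 9.76e-19, edgeR quasi-likelihood) and was 1.86-fold and 1.68-fold higher in Huh-7 (adjusted p = 2.69e-21 and 4.33e-19), below the 2-fold threshold. The calls of both genes rest on the scaling: with upper-quartile scaling the HepG2 changes at 12 h were log2 0.88 for TXN and 0.97 for TXNRD1, and on plain library totals 0.66 and 0.75. Both genes stayed above the untreated level in both lines under all 4 scalings run. At 24 h in HepG2 TXNRD1 also lost its call, with log2 0.95 and 0.82.

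SRXN1 encodes sulfiredoxin, which repairs overoxidized peroxiredoxins, and its direction differed between the lines. In HepG2 it had 70 CPM untreated, 71.9, 69.8 and 70.9 CPM at 12 h, and 156.2, 164 and 153.6 CPM at 24 h. Its Huh-7 levels were 49.5, 47.25 and 46.5 CPM untreated, 24.2, 24.8 and 22.3 CPM at 12 h, and 31.7, 35.0 and 35.4 CPM at 24 h. The HepG2 libraries at 24 h stand apart from all others, and in Huh-7 no treated library reached an untreated one. In HepG2 the 12 h change was 1.01-fold (95% interval of the log2 change -0.13 to 0.16; -0.38 on plain library totals) and the gene rose 2.26-fold by 24 h (log2 1.17 ± 0.07, adjusted p = 1.14e-16, edgeR quasi-likelihood), which was log2 0.91 and no call on plain library totals. In Huh-7 it fell 2.01-fold at 12 h (log2 -1.01 ± 0.07, adjusted p = 1.93e-15) and was 1.40-fold lower at 24 h. The 12 h call of Huh-7 was lost without untreated replicate 1 (log2 -0.98) or without 12 h replicate 3 (-0.96).

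OSGIN1, an oxidative stress-induced growth inhibitor, was the lowest member per length in untreated HepG2 and the one with the largest rise. In HepG2 it had 7.43 CPM untreated, 15.8, 14.2 and 14.25 CPM at 12 h, and 35.2, 37.0 and 40.1 CPM at 24 h. In Huh-7 it had 6.64, 6.54 and 7.62 CPM untreated, 3.24, 2.63 and 3.73 CPM at 12 h, and 16.02, 16.1 and 14.0 CPM at 24 h. The Huh-7 libraries were lowest at 12 h and highest at 24 h, with no overlap between any pair of times. At 12 h OSGIN1 was 1.98-fold higher in HepG2 (log2 0.99 ± 0.16, adjusted p = 2.06e-06, edgeR quasi-likelihood), just short of a call, and it was called at log2 1.01 without HepG2 12 h replicate 2 or replicate 3. In Huh-7 it fell 2.16-fold at 12 h (log2 -1.11 ± 0.17, adjusted p = 2.47e-07), a call lost without Huh-7 12 h replicate 2 (log2 -0.99). At 24 h it rose 5.03-fold in HepG2 (log2 2.33 ± 0.14, adjusted p = 4e-16) and 2.21-fold in Huh-7 (log2 1.15 ± 0.11, adjusted p = 3.7e-11). The Huh-7 rise was log2 0.87 with upper-quartile scaling and 0.80 on plain library totals, no call under either.

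**Figure D4:**
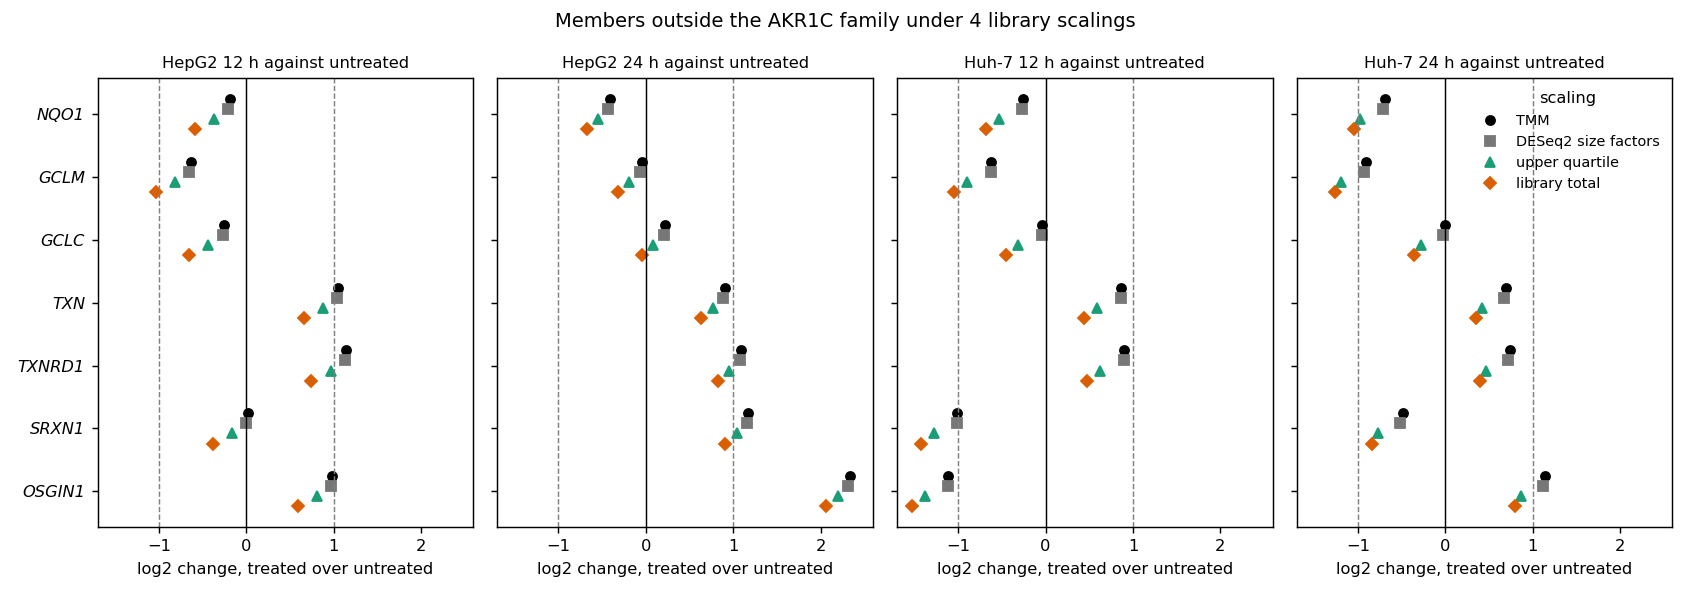
Log2 change, treated over untreated, of the 7 members outside the AKR1C family under 4 scalings of the libraries, in HepG2 and Huh-7 at 12 and 24 h; dashed lines mark a 2-fold change. Values shift to the left together from TMM to the library total, so TXN and TXNRD1 cross the 2-fold line in HepG2 at 12 h while their direction holds, and SRXN1 in HepG2 at 12 h crosses 0.

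Per length, the order of the members differed between the lines. In untreated HepG2, the single library, TXN led at 290.3 FPKM, followed by NQO1 at 244.7, AKR1C3 at 242.8, TXNRD1 at 202.5, AKR1C1 at 74.7, AKR1C2 at 68.5, SRXN1 at 30.3, GCLC at 13.5, GCLM at 13.4 and OSGIN1 at 4.46 FPKM. In untreated Huh-7, TXN averaged 289.6 ± 10.3 FPKM (SD, n = 3), AKR1C3 166.8 ± 8.44, TXNRD1 128.4 ± 3.67, NQO1 51.45 ± 2.04, GCLM 25.2 ± 0.89, AKR1C1 22.4 ± 0.79, SRXN1 21.7 ± 0.85, GCLC 18.0 ± 0.48, OSGIN1 4.37 ± 0.36 and AKR1C2 2.52 ± 0.40 FPKM. AKR1C1 and SRXN1 in that order lie within their spread, while the other neighbours are separated by more than 1 SD. At 24 h TXN and TXNRD1 led in both lines, with 450.6 and 362.5 FPKM in HepG2 and 369.3 and 170.5 FPKM in Huh-7. FPKM values rest on unscaled library totals.

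Compared between the lines, 3 of the 10 members were called higher in untreated HepG2 than in untreated Huh-7 and none lower, beside 26.8% of all tested genes called, 13.8% higher and 13.1% lower. These were AKR1C2 (25.8-fold), NQO1 (5.00-fold) and AKR1C1 (3.50-fold), with adjusted p at most 6.81e-19 by edgeR's quasi-likelihood test; the spread of the lone HepG2 library had to be taken from the other groups. TXN and OSGIN1 did not pass (95% intervals of the log2 difference -0.05 to 0.19 and -0.27 to 0.46). At 12 h 6 members were called higher in HepG2 and none lower (33.9% of all genes called, 18% higher and 15.9% lower), and at 24 h 7 and none (36.6%, 19.9% higher and 16.7% lower). With no fold threshold 8 members differed between untreated lines, 10 at 12 h and 9 at 24 h, beside 69.7%, 77% and 78.8% of all genes. The additions at 12 h were AKR1C3 (3.92-fold), SRXN1 (2.98-fold) and OSGIN1 (4.59-fold), and at 24 h TXNRD1 (2.12-fold). AKR1C2 at 24 h, with 1090 counts in HepG2 against 4 in Huh-7, was 260-fold higher (exact 95% counting interval 101 to 956). NQO1 kept its gap, at 5.27-fold at 12 h and 6.08-fold at 24 h. GCLM and GCLC ran the other way in untreated cells, 1.80-fold and 1.27-fold lower in HepG2, short of a call. At 24 h the GCLM levels of the lines did not differ beyond their spread (95% interval of the log2 difference -0.10 to 0.14).

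The difference of the responses was tested as an interaction, the HepG2 change minus the Huh-7 change on the log2 scale. At 12 h it was called for 4 members, all positive (17.8% of all genes called, 9.4% positive and 8.35% negative): OSGIN1 at 2.10 ± 0.23, AKR1C2 at 1.65 ± 0.30, AKR1C3 at 1.36 ± 0.12 and SRXN1 at 1.03 ± 0.10 (± SE). At 24 h it was called for 4, again all positive (24% of all genes called, 13.1% positive and 10.9% negative): AKR1C2 at 3.21 ± 0.49, AKR1C1 at 2.26 ± 0.25, SRXN1 at 1.66 ± 0.09 and OSGIN1 at 1.19 ± 0.19. Adjusted p was at most 2.47e-05 for all 8 by edgeR's quasi-likelihood test. The AKR1C sum differed by 1.58 ± 0.10 at 12 h, a call, and by 0.98 ± 0.10 at 24 h, short of 2-fold. For TXN the difference was 0.19 at 12 h (95% interval 0.05 to 0.33) and 0.20 at 24 h (0.06 to 0.34), and for NQO1 0.07 (-0.06 to 0.21) and 0.28 (0.15 to 0.42), so these responses differed between the lines by well under 2-fold. The differences at 12 h and 24 h rest on 1 untreated HepG2 library, and those between 12 and 24 h use treated libraries only. The AKR1C2 value at 24 h was 4.43 without Huh-7 24 h replicate 1 and 2.66 without replicate 3. On log2(FPKM + 1) the AKR1C2 difference turned to -0.05 at 12 h and -0.504 at 24 h. There AKR1C2 of treated Huh-7 lies below the pseudocount, at a mean of 0.333 FPKM at 12 h and 0.067 FPKM at 24 h. From 12 to 24 h, AKR1C1 was the 1 member called, at 1.63 ± 0.27, beside 12.2% of all genes, 6.92% positive and 5.24% negative. Over this interval the difference was 1.57 ± 0.67 for AKR1C2, -0.685 ± 0.129 for AKR1C3 and -0.60 ± 0.11 for the AKR1C sum, none of them called. The sum thus had the opposite sign to AKR1C1. With no fold threshold 7, 10 and 7 members passed for the differences at 12 h, at 24 h and from 12 to 24 h, beside 51.7%, 60.1% and 50.6% of all genes.

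From 12 to 24 h within a line, 2 members were called higher and 1 lower in HepG2 (11.8% of all genes called, 6.54% higher and 5.31% lower), and 1 higher and 2 lower in Huh-7 (13.1%, 6.51% higher and 6.54% lower). With no fold threshold 8 and 9 members passed, beside 61.5% of all genes in each line. OSGIN1 rose in both, 2.54-fold in HepG2 and 4.78-fold in Huh-7, SRXN1 rose 2.23-fold in HepG2, and AKR1C1 fell in both. AKR1C2 fell in Huh-7, with 4 counts at 24 h against 21 at 12 h, a ratio 5.74-fold lower with a counting interval of 1.94 to 23.

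The wider pathway was followed through 6 lists of 95 genes, of which 89 were tested. In HepG2, 10 were called higher and 21 lower at 12 h, and 8 higher and 33 lower at 24 h. In Huh-7, 10 were called higher and 28 lower at 12 h, and 13 higher and 36 lower at 24 h. Of all tested genes, 14.3% were called higher and 23.6% lower in HepG2 at 12 h, 14.1% and 22.3% at 24 h, and in Huh-7 16.8% and 27.1% at 12 h and 17.9% and 26.9% at 24 h. The higher share of all calls was 37.7%, 38.7%, 38.3% and 40% in these 4 comparisons under TMM, and 19.3%, 24.2%, 21.3% and 24.3% on plain library totals or 29%, 30.9%, 26.8% and 27.1% with upper-quartile scaling.

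Among the 10 NRF2 regulators every call was upward under TMM: 7 at 12 h and 5 at 24 h in HepG2, and 5 and 4 in Huh-7, with list medians of log2 1.59, 1.02, 1.24 and 0.74. NFE2L2 itself averaged 302 ± 3.13 CPM at 12 h and 234.3 ± 1.01 CPM at 24 h in HepG2 (SD, n = 3), against 87.6 CPM untreated, and rose 3.45-fold and 2.67-fold. In Huh-7 it averaged 146.5 ± 3.16 and 74.5 ± 5.79 CPM, against 51.0 ± 3.34 CPM untreated, a 2.87-fold rise at 12 h and a 1.46-fold difference, not called, at 24 h. The small MAF genes rose in all 4 comparisons: MAFF 20.7-fold and 8.88-fold in HepG2 and 65.8-fold and 34.7-fold in Huh-7, MAFG 8.00-fold and 3.78-fold in HepG2 and 7.86-fold and 5.95-fold in Huh-7, and MAFK 8.78-fold and 7.58-fold in HepG2 and 3.34-fold and 2.61-fold in Huh-7. BACH1, the repressor, peaked at 12 h, with 116.8 ± 3.78 CPM at 12 h and 48.6 ± 3.74 CPM at 24 h in HepG2, against 20.05 CPM untreated, and 119 ± 1.79 and 47.9 ± 4.83 CPM in Huh-7, against 19.4 ± 0.85 CPM untreated. KEAP1 was called in none of the 4 comparisons, at 76.8 and 93.55 CPM in treated HepG2, against 72.2 CPM untreated, and 28.5 and 22.1 CPM in treated Huh-7, against 32.2 CPM untreated. CUL3 and SQSTM1, the autophagy receptor that also binds KEAP1, rose in HepG2 at 12 h, by 2.42-fold and 2.62-fold, calls lost on plain library totals (log2 0.88 and 0.99). On those totals BACH1 also lost its call in Huh-7 at 24 h (log2 0.96), and NFE2L1, a related factor, was called lower at 12 h in both lines (log2 -1.10 in HepG2 and -1.28 in Huh-7), as was RBX1, the ligase's RING subunit, in Huh-7 (-1.06). With upper-quartile scaling NFE2L1 was called lower in Huh-7 at 12 h (-1.14).

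The 11 NADPH supply enzymes were called lower or not at all: 4 at 12 h and 6 at 24 h in HepG2, and 6 and 8 in Huh-7, with none higher under any of the 4 scalings. IDH1, the cytosolic isocitrate dehydrogenase, averaged 10.54 ± 0.71 and 17.2 ± 1.52 CPM in treated HepG2, against 168.3 CPM untreated, and 3.58 ± 0.56 and 0.897 ± 0.57 CPM in treated Huh-7, against 61.5 ± 1.98 CPM untreated. IDH2, its mitochondrial counterpart, fell 2.25-fold and 9.24-fold in HepG2 and 6.18-fold and 15.2-fold in Huh-7. Of the pentose phosphate pathway, PGLS fell 2.03-fold and 5.35-fold in HepG2, and PGD fell 3.155-fold at 12 h in Huh-7.

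The 13 tested other aldo-keto and carbonyl reductases held 5 genes called lower at 12 h and 7 at 24 h in each line. The 1 called higher was AKR7A3 in Huh-7 at 24 h (2.41-fold), at only 1.89 ± 0.78 CPM against 0.778 ± 0.25 CPM untreated. It was not called with upper-quartile scaling or plain library totals. CBR1, which reduces carbonyls of quinones and anthracyclines, averaged 33.15 ± 1.65 and 61.25 ± 1.06 CPM in treated HepG2, against 97.0 CPM untreated, and 4.30 ± 0.73 and 13.2 ± 0.99 CPM in treated Huh-7, against 39.3 ± 1.89 CPM untreated. AKR1A1, the aldehyde reductase, fell 3.67-fold and 6.54-fold in HepG2 and 2.43-fold and 3.24-fold in Huh-7. Of the 17 tested haem, iron, export and conjugation genes, 6 and 8 were called lower in HepG2 and 8 and 9 in Huh-7, and 2 higher in each comparison but Huh-7 at 12 h, which had none. PIR, a nuclear iron protein, fell 3.20-fold and 8.35-fold in HepG2 and 12.2-fold and 38.0-fold in Huh-7, and TRIM16L fell 11.4-fold and 5.36-fold in HepG2 and 7.61-fold and 9.61-fold in Huh-7. The genes called higher were FTH1, the ferritin heavy chain, which rose 3.06-fold and 3.44-fold in HepG2 and 2.03-fold at 24 h in Huh-7, and ABCC1, an exporter of glutathione conjugates, which rose 2.27-fold and 2.62-fold in HepG2 and 2.34-fold at 24 h in Huh-7. Both Huh-7 calls, and 1 of the 2 HepG2 calls at 12 h, were lost with upper-quartile scaling and on plain library totals. AKR7A3 and ABCC1 were named after their values were seen. CBR1 at 24 h in HepG2 was 1.58-fold lower, short of a call.

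Of the 23 tested glutathione and cystine import genes, 1 was called higher at each time in HepG2 and 3 at each time in Huh-7, and 4 and 9 were called lower in HepG2 and 7 and 8 in Huh-7. On plain library totals 9 and 10 were called lower in HepG2 and 11 and 13 in Huh-7, with 1 called higher at each time in HepG2 and 2 in Huh-7. SLC3A2, a chain of the cystine and amino acid exchangers, rose 2.78-fold and 3.75-fold in HepG2 and 3.59-fold and 4.20-fold in Huh-7. SLC7A11, the other cystine import gene of the list, averaged 38.65 and 31.0 CPM in treated HepG2, against 69.1 CPM untreated. In Huh-7 it averaged 165.6 CPM at 12 h and 63.2 CPM at 24 h, against 81.3 CPM untreated. Its difference of responses at 12 h was log2 -1.86. CHAC1, which degrades glutathione, was opposite in the lines at 12 h, with 11.2 ± 0.47 CPM in HepG2, against 51.5 CPM untreated, and 138.3 ± 6.48 CPM in Huh-7, against 2.73 ± 0.36 CPM untreated. GSS, the enzyme after glutamate-cysteine ligase, fell 4.58-fold in HepG2 and 4.35-fold in Huh-7 at 24 h. Of the 15 thioredoxin and peroxiredoxin enzymes, none was called higher in HepG2, where 2 and 3 were called lower (5 at 12 h with upper-quartile scaling and 6 on plain library totals). In Huh-7, 2 were called higher and 2 lower at 12 h, and 3 higher and 4 lower at 24 h; SESN2, a stress-induced sestrin, rose 13.9-fold and 4.74-fold there. In HepG2 it averaged 41.2 and 86.3 CPM, against 79.0 CPM untreated. Under TMM neither was a call, with the 12 h fall just short of 2-fold. The difference of responses was called at both times (log2 -4.74 and -2.12). The list median of Huh-7 at 12 h was log2 0.22 under TMM and -0.06 with upper-quartile scaling. TXNIP, the thioredoxin-binding inhibitor, averaged 822.2 CPM at 12 h and 251.4 CPM at 24 h in HepG2, against 546.7 CPM untreated, and 187.7 and 392.1 CPM in Huh-7, against 103.7 CPM untreated. It fell 2.18-fold in HepG2 and rose 3.78-fold in Huh-7 at 24 h, and it was called in neither line at 12 h.

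**Figure D5:**
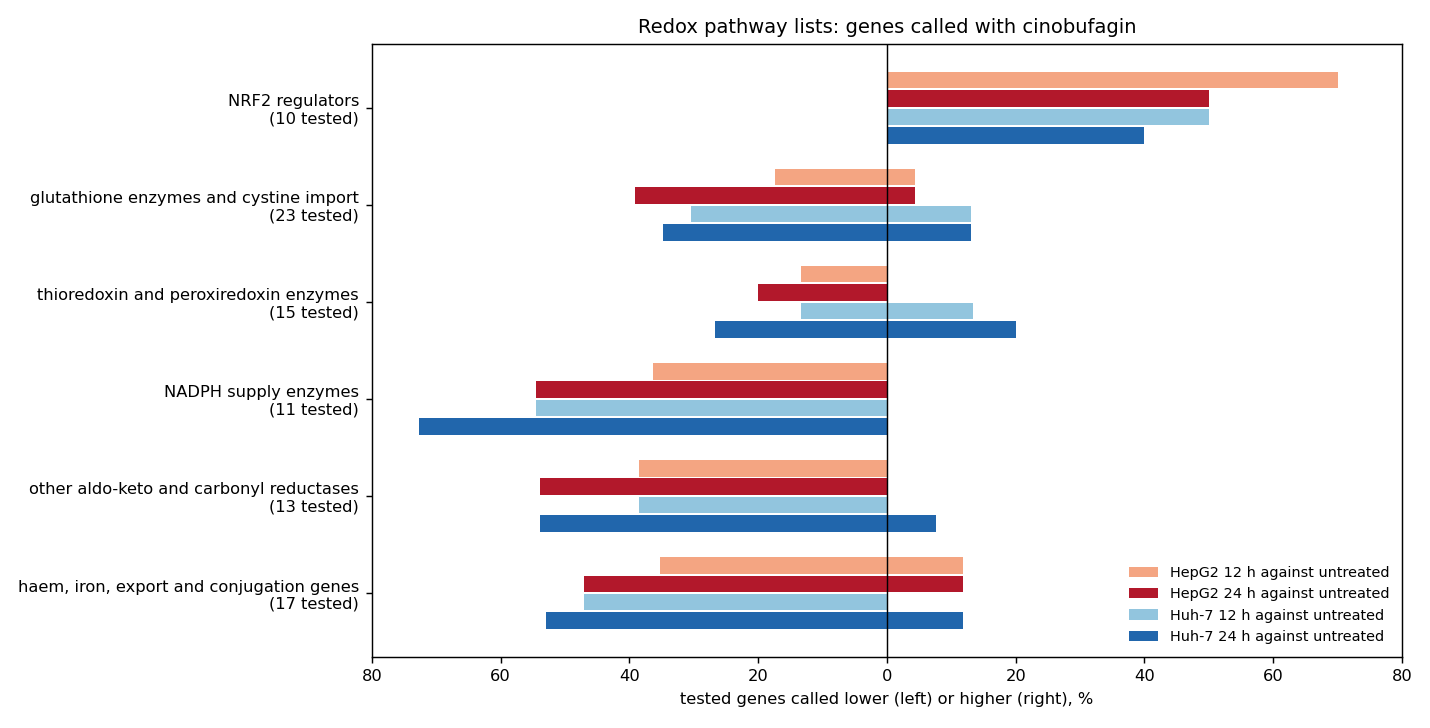
Percent of the tested genes of each of 6 redox lists called lower (left) or higher (right) with cinobufagin, at 12 and 24 h in HepG2 and Huh-7 under TMM scaling. The 10 NRF2 regulators have calls on the right and the 11 NADPH supply enzymes on the left in all 4 comparisons under TMM. On other scalings, not drawn, NFE2L1 was called lower at 12 h in both lines and RBX1 in Huh-7 (plain library totals), and NFE2L1 in Huh-7 (upper quartile).

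Genes with the most similar pattern were taken from 10548 genes that reached 10 CPM in a group, by the root mean square difference of log2 CPM over the 6 group means after centring. CPS1, the first enzyme of the urea cycle, was nearest to NQO1 (0.17 on the log2 scale), KCTD12 to GCLM (0.11), DDX6 to TXNRD1 (0.14), FAM234A to AKR1C1 (0.30) and TMEM265 to OSGIN1 (0.40). After FAM234A came ACP6 (0.46) and NIPSNAP3A (0.53) for AKR1C1, and after DDX6 came CMPK1 and PCNA (0.14 each) for TXNRD1. CPS1 averaged 2372 and 2385 CPM in treated HepG2, against 2594 CPM untreated, and 615.2 and 393.6 CPM in treated Huh-7, against 648.9 CPM untreated.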

How the data were processed

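Per the labels, poly(A) RNA was sequenced on an Illumina HiSeq instrument. Per the submitters' processing notes, HISAT, Bowtie2, RSEM and hg19 were used, with versions not given in the sources used here; whether counting used strand is also not given. The deposited tables give for each library RSEM's expected counts, which are estimates of reads per gene before normalization, and the authors' FPKM, which divides them by length and library total. A gene not listed in a library was taken as 0. Identifiers were matched to RefSeq symbols (16665 of 16697, with 32 left unnamed).

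Expected counts, of which 31.08% to 32.3% of values were not whole, were rounded. They were filtered with filterByExpr (3064 genes with 0.0231% of counts removed), TMM-scaled and fitted in edgeR 4.0.16 (R 4.3.3) by the quasi-likelihood test over 6 groups and 16 libraries, with 10 residual degrees of freedom and Benjamini-Hochberg adjustment over 13633 genes. HepG2 has 1 untreated library, whose spread is assumed equal to that of the other groups and which has no SD. No pair of libraries agreed within sampling noise. The fit was tested on simulated data with 200 changed genes, in the comparison of Huh-7 at 12 h with untreated Huh-7 alone. That setting covers neither the large share of genes called here nor the lone untreated HepG2 library. Alternatives used limma 3.58.1, DESeq2 1.42.0, other scalings, filters and thresholds, and left out each library. Apart from the members, pathway genes were named from the 4 of each list with the largest change among those called in a comparison and averaging at least 10 CPM, with any NRF2 regulator. Also named were up to 3 of the genes nearest in pattern to each of 5 members. The members, lists and rules were chosen with earlier results of these data known.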

Additional observations from a re-analysis of the deposited data

Results flagged for a closer look

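The results below stood out because the response to cinobufagin differed between HepG2 and Huh-7 by edgeR's quasi-likelihood test of the difference itself, the HepG2 log2 change minus the Huh-7 log2 change. Those at 12 h and 24 h rest on a single untreated HepG2 library, and no explanation of them was tested.

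At 12 h the difference was 1.645 for AKR1C2 (adjusted p = 2.47e-05) and 1.36 for AKR1C3 (adjusted p = 7.02e-12), so both genes fell less in HepG2 on this scale. On log2(FPKM + 1), where AKR1C2 of treated Huh-7 lies below the pseudocount, its difference turned to -0.05 at 12 h and -0.504 at 24 h. The 12 h difference was 2.099 for OSGIN1 (adjusted p = 2.74e-09), where all 3 HepG2 libraries lay above the untreated one and all 3 Huh-7 libraries below theirs. It was 1.026 for SRXN1 (adjusted p = 1.34e-10), which was no call without Huh-7 untreated replicate 1 (0.984) or without Huh-7 12 h replicate 3 (0.982).

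At 24 h the difference was 2.255 for AKR1C1 (adjusted p = 1.31e-09), 3.212 for AKR1C2 (adjusted p = 8.42e-07), 1.662 for SRXN1 (adjusted p = 1.22e-16) and 1.185 for OSGIN1 (adjusted p = 2.9e-06). The AKR1C2 value rests on 4 counts in Huh-7 at 24 h. From 12 to 24 h the difference was 1.63 for AKR1C1 (adjusted p = 4.56e-06), and 0.656 on log2(FPKM + 1), where AKR1C1 of Huh-7 at 24 h lies below the pseudocount. The AKR1C sum, which does not depend on how reads were split, had the opposite sign there, at -0.599, short of a call.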

How the results depend on the processing

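Most results kept their direction and their side of the threshold. DESeq2's Wald test changed no call, and AKR1C4 added to the AKR1C sum changed none of its 12 calls. The falls of AKR1C1, AKR1C2 and AKR1C3 against untreated cells were called under every scaling. The cause of the changes below was not tested. The AKR1C2 values of Huh-7 are limited by depth, at 21 counts over 3 libraries at 12 h and 4 at 24 h.

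Directions turned for these log2 values. GCLC turned to 0.005 in Huh-7 at 12 h with the compared groups alone, to between -0.038 and 0.017 at 24 h with single libraries left out, and in HepG2 at 24 h to -0.048 on plain library totals and -0.044 and -0.047 on log2(FPKM + 1) and log2(FPKM + 0.1). SRXN1 in HepG2 at 12 h turned to -0.162 with upper-quartile scaling, -0.381 on plain totals and -0.366 and -0.379 on the FPKM scales. The AKR1C sum of Huh-7 at 24 h against 12 h was 0.023 and 0.024 on the FPKM scales and -0.192 to 0.001 with libraries left out. TXNRD1 of HepG2 at 24 h against 12 h was 0.077 on plain totals and 0.081 on both FPKM scales. In untreated HepG2 against untreated Huh-7, upper-quartile scaling gave -0.06 for TXN and -0.033 for OSGIN1. GCLM in HepG2 against Huh-7 at 24 h ranged over -0.012 to 0.051 with libraries left out. The GCLM difference of responses at 12 h was 0.082 with upper-quartile scaling, 0.01 on plain totals, 0.013 without the filter, 0.053 and 0.014 on the FPKM scales and -0.053 to 0.049 with libraries left out. That of TXN from 12 to 24 h was -0.022 to 0.052. On log2(FPKM + 1), where AKR1C2 of treated Huh-7 lies below the pseudocount, its differences were -0.05 at 12 h, -0.504 at 24 h and -0.454 from 12 to 24 h.

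Counts moved most without the fold threshold. The members called were then 9 in Huh-7 at 12 h, 24 h and between them, 9 in HepG2 at 12 h and 8 from 12 to 24 h, 8 between untreated lines, 10 between lines at 12 h, and 7, 10 and 7 for the differences of responses at 12 h, 24 h and from 12 to 24 h. The pathway genes called were 79, 79 and 71 in Huh-7, 72, 76 and 72 in HepG2, 71, 77 and 72 between lines, and 55, 66 and 61 for the differences. The AKR1C sum then passed at -0.698 in HepG2 from 12 to 24 h, 0.977 for the difference at 24 h and -0.599 from 12 to 24 h. Against 1.5-fold by glmTreat, members called were 8 in Huh-7 at 24 h, 5 between untreated lines and 2 for the difference from 12 to 24 h, pathway genes 26 for the difference at 12 h, and the sum passed at -0.698 and 0.977. On log2(FPKM + 1), members called were 3 in HepG2 at 12 h, 2 for the difference at 12 h and 0 from 12 to 24 h (edgeR called 1), and pathway genes 11 in Huh-7 from 12 to 24 h and 10 for the difference from 12 to 24 h. With upper-quartile scaling 3 members were called in HepG2 at 12 h. For the difference from 12 to 24 h, 2 members were called with upper-quartile scaling, plain totals, DESeq2 size factors or no filter, and 1 to 3 with libraries left out. The difference of the AKR1C sum at 24 h became a call at 1.115 with upper-quartile scaling, 1.061 on plain totals and 1.022 without the filter, and ranged over 0.876 to 1.06 with libraries left out.

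Equal replicate numbers did not pair the libraries: the 12 correlations of same-numbered libraries were -0.065 to 0.034. With the replicate number as a block, 2 members were called for the difference from 12 to 24 h, the AKR1C sum difference at 24 h was 1.046, TXNRD1 was called between lines at 12 h (1.043), and no other call of a member or the sum changed.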
